A study of Mus musculus with 6 samples.

Results

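Among the 55401 genes counted in splenic germinal centre B cells, 10 were chosen because they had few or no reads in the subset labelled DN and a clear signal in the subset labelled DP: Lad1, Htr7, Il1r2, Etv4, Hpdl, Glt1d1, Acaa1b, Arhgdig, Ankrd33b and Mfsd2a. They were picked by symbol from results of the DP against DN comparison, so the difference between the subsets is given here as a description and carries no test. The cells came from spleens of wild-type C57BL/6 mice given sheep red blood cells by intraperitoneal injection, with a second, larger injection on day 5 and analysis on day 12, and all 6 libraries share these conditions and a batch label. DN and DP were sorted by flow cytometry, each is represented by 3 polyadenylated RNA libraries, and the labels do not name the markers behind either name. The series' design text speaks of 3 mice that each provided both subsets. Which library belongs to which animal is not labelled, so p-values measure only the spread between libraries, which may be technical.

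Germinal centre B cells divide and mutate their antigen receptors in the dark zone and are selected by antigen and T cell help in the light zone. Gene programmes that are absent from most of these cells can be switched on after activation through CD40, the antigen receptor or cytokines. The 10 genes do not belong to a common pathway. They include genes for a decoy cytokine receptor, a serotonin receptor, a lipid transporter, a transcription factor, a peroxisomal thiolase, a mitochondrial dioxygenase, a glycosyltransferase, a basement membrane protein and an ankyrin repeat protein.

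The DN libraries held 8904415 to 11897360 gene counts and the DP libraries 17509384 to 20538024. Levels are CPM, counts scaled to a common library size after TMM adjustment for composition. The B cell label held up in both subsets, as the summed level of 8 B cell markers lay between 3030 and 3060 CPM in DN and between 1870 and 1900 CPM in DP, and that of 9 germinal centre markers between 10500 and 11300 CPM and between 5600 and 6240 CPM. All 17 of these markers fell in DP. A gene without a read in any DN library may have had up to 3 counts over the group, or 0.0937 CPM. Intervals and this limit cover counting error only.

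Together the 10 genes took 21, 12 and 13 counts in the DN libraries and 749, 817 and 708 in the DP libraries. Of them, 7 (Htr7, Il1r2, Etv4, Hpdl, Glt1d1, Acaa1b and Arhgdig) had no read in any DN library, and their joint level in the DP libraries was 11.1 to 12.3 CPM. Lad1 was seen in 2 of 3 DN libraries, and Mfsd2a and Ankrd33b in all 3. In bulk libraries a small share of cells with much RNA cannot be told apart from many cells with little. For 10 of 10 genes every DP library lay above every DN library, as it did for 39.0% of the 11296 genes that passed the count filter (filterByExpr with a minimum count of 10). With a DN sum of 0 set to 3 counts, the ratio of DP to DN counts was also at least 10 in 9 of the 10, as in 0.664% of the tested genes. Hpdl, which had no DN read, was the exception at 9.75 under this setting. At an edgeR adjusted p under 0.05, 75.9% of these genes differed between the subsets, 38.3% being higher in DP. Because the genes were chosen for this difference, nothing can be read from the comparison of those shares. All 10 passed the filter through their DP counts.

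**Figure D1:**
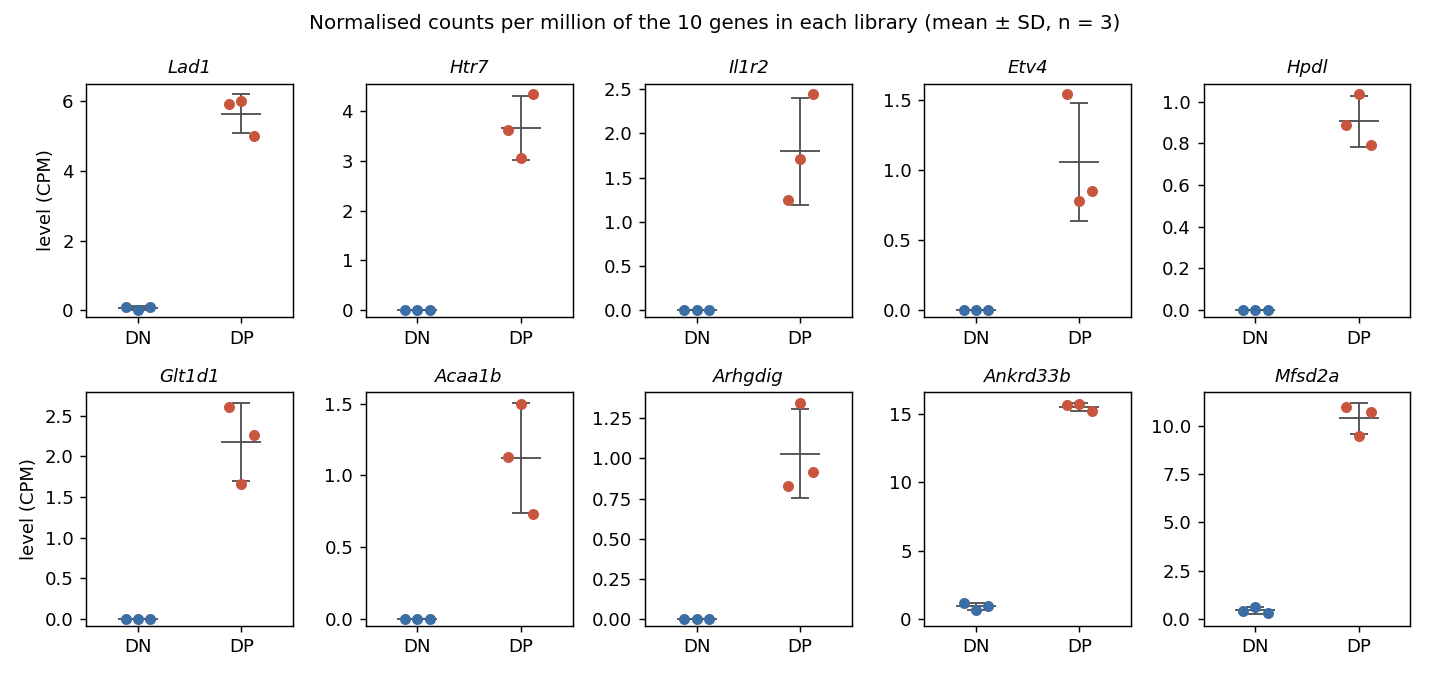
Level in CPM (y axis, each panel with its own scale) of the 10 genes in the 3 DN and 3 DP libraries. Points are libraries, and the horizontal line and error bar give the mean and SD. DN points lie at or near the foot of every panel on its own scale. The highest, 1.18 CPM for Ankrd33b, is above the DP mean of Hpdl. The DP means run from 0.906 CPM for Hpdl to 15.5 CPM for Ankrd33b.

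Il1r2 encodes the type 2 interleukin-1 receptor, a decoy that binds interleukin-1 without passing on a signal. Its counts were 0 in each DN library and 21, 33 and 40 in the DP libraries, or 1.25, 1.71 and 2.44 CPM. The groups did not overlap, and chi-square over the DP libraries, against counting noise alone, was 3.38 per degree of freedom. With only 3 libraries this value varies widely by counting noise itself, so here and below it is given without a reading. At the DP level 57.3 counts would have fallen in DN, and with DN set to 3 counts the level was 19.1-fold higher in DP.

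Several other receptors of the family were scarce. Il1r1, the signalling receptor that lies next to Il1r2 on chromosome 1, had 4, 1 and 2 counts in DN and 9, 14 and 11 in DP and did not reach the filter. Il1rl1 had no read in any library, and Il18r1 had 4 counts in DN and 18 in DP. Il1rap, the shared accessory chain, rose from 3.27 ± 0.567 to 4.804 ± 0.237 CPM (SD, n = 3; log2 fold change 0.54 ± 0.18 (SE), edgeR adjusted p = 0.00714), but not with library totals alone (adjusted p = 0.0869) or without DN replicate 2 (adjusted p = 0.0518). Sigirr, an inhibitory member, fell by 0.47 ± 0.17 (adjusted p = 0.0125), though not without DN replicate 3 (adjusted p = 0.0542), DP replicate 1 (adjusted p = 0.0667) or the count filter (adjusted p = 0.0634). Of 10 tested genes of the interleukin-1 family and its signalling, Il1r2 aside, 3 rose and 6 fell, with a median of -0.18 against 0.0061 over all tested genes. With library totals alone 2 rose and 7 fell, and leaving out a library gave 2 to 4 that rose and 4 to 5 that fell. The adaptor Myd88 rose by 0.77 ± 0.07 and the kinase gene Irak1 by 0.45 ± 0.06, while the kinase gene Irak2 fell by 1.62 ± 0.20. The ligand genes Il1a and Il1b had at most 3 counts in any library, and Il1b had none in DP. Il1rn, of the same list, had 3 counts in DN and 27 in DP and did not reach the filter.

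The stretch before the RefSeq start of Il1r2 is shown because it holds 2 copies of the letters CACGTG, the E-box that MYC and related factors bind. Of 32851 windows of 250 bases before a RefSeq start, 6.02% held CACGTG and 0.429% held it at least 2 times. The capitals mark the 2 matches, which begin 238 and 195 bases before the start. The printed part, at chr1:40085843-40085984 of GRCm38.p6 on the plus strand, ends where an exon of another Il1r2 transcript begins. This RefSeq start lies 12014 bases inside the gene as GENCODE annotates it, so the window is not that of its first annotated start.
Il1r2: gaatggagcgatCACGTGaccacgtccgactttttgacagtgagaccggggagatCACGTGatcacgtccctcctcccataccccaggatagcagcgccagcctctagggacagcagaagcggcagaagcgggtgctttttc
A match of letters is a description and not a binding site.

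Htr7 encodes a serotonin receptor that couples to the Gs protein and raises cyclic AMP. No read fell on it in DN, and the DP libraries held 61, 59 and 71 counts, or 3.62, 3.05 and 4.33 CPM. It had the most DP counts of any gene without a DN read. At the DP level 116 counts would have been found in DN, and with DN set to 3 counts it was 38.8-fold higher in DP.

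None of the other 13 serotonin receptor genes on the list had a read in any library, nor did the synthesis genes Tph1, Tph2 and Ddc or the serotonin transporter gene Slc6a4. Maoa, which encodes an enzyme that breaks down serotonin, had 3, 1 and 11 counts in DN and 62, 43 and 55 in DP. Its level rose from 0.489 ± 0.557 to 3.09 ± 0.762 CPM (SD, n = 3; log2 fold change 2.68 ± 0.38, adjusted p = 3.42e-08). Of 17 tested genes of Gs and cyclic AMP signalling, 12 fell and 3 rose, with a median of -0.77. Gnas, which encodes the Gs alpha subunit, fell by 0.77 ± 0.04. The phosphodiesterase genes Pde7a and Pde4b, whose products break down cyclic AMP, changed by -1.47 ± 0.05 and -1.95 ± 0.08, whereas the kinase subunit gene Prkar2a rose by 1.33 ± 0.06.

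Mfsd2a encodes a transporter that carries lysophospholipids, among them those with docosahexaenoic acid, into cells. It had 5, 6 and 3 counts in DN and 185, 183 and 175 in DP. These are means of 0.443 ± 0.167 and 10.4 ± 0.795 CPM (SD, n = 3), and no DP library overlapped the DN range. The ratio of 23.6 had an exact 95% counting interval of 13.96 to 43.5. Chi-square over its DP libraries was 1.12 per degree of freedom.

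The nearest relative, Mfsd2b, had 7 counts in DN and 6 in DP. Of 14 tested genes of lysophospholipid transport, fatty acid activation and re-acylation other than Mfsd2a, 9 rose and 1 fell, with a median of 0.37. With library totals alone 7 rose and 4 fell. Fabp5, a fatty acid binding protein, rose by 3.70 ± 0.07, and the acyl-CoA synthetase genes Acsl5 and Acsl3 by 0.40 ± 0.04 and 0.55 ± 0.07. Their relative Acsl4 fell by 0.30 ± 0.06.

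Etv4 encodes a transcription factor of the PEA3 branch of the ETS family, whose members are induced by ERK signalling. Its counts were 0 in every DN library and 26, 15 and 14 in DP, or 1.54, 0.776 and 0.854 CPM. The first DP library thus held nearly as many counts as the other two together, and chi-square was 2.94 per degree of freedom. At the DP level 33.5 counts would have fallen in DN, and with DN set to 3 counts the level was 11.2-fold higher in DP.

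The PEA3 factor Etv5 rose from 1.17 ± 0.157 to 2.25 ± 0.223 CPM (SD, n = 3; log2 fold change 0.95 ± 0.28, adjusted p = 0.00209). Etv1, the remaining PEA3 gene, had 1 count in DN and 3 in DP. Of 17 tested ETS genes other than Etv4, 11 fell and 3 rose, with a median of -0.46. The 3 with the smallest p all fell, with log2 fold changes of -1.78 ± 0.04 for Ets1, -1.62 ± 0.05 for Fli1 and -1.83 ± 0.08 for Ehf. Etv6 and Erf were the others that rose, by 1.29 ± 0.08 and 0.84 ± 0.25. Among 11 tested genes that ERK induces or that restrain it, 5 rose and 3 fell. Dusp6, a phosphatase that dephosphorylates ERK, fell by 0.46 ± 0.15. Myc rose by 3.55 ± 0.09 and Dusp4 by 0.78 ± 0.10, and Dusp5 fell by 2.02 ± 0.19. Spry2 had 3 counts in DN and 14 in DP and Spry4 had 2 and 33, both below the filter.

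Acaa1b encodes a peroxisomal 3-ketoacyl-CoA thiolase, which carries out the last step of fatty acid oxidation in that organelle. DN held no read of it, and the DP libraries held 19, 29 and 12, or 1.13, 1.5 and 0.732 CPM. With DN at 3 counts it was 12.2-fold higher in DP. Of its 50-base stretches, 39.6% also occur in transcripts of Acaa1a, a near copy of it, or of Dlec1, which overlaps it by 224 exon bases on the other strand. The same holds for 485 of its 1863 stretches of 100 bases. Dlec1 itself had 5 counts in DN and 10 in DP. Reads from those stretches cannot be placed with certainty, so the level of Acaa1b is uncertain. Acaa1a itself rose from 10.6 ± 1.06 to 15.35 ± 0.979 CPM (SD, n = 3; log2 fold change 0.54 ± 0.11, adjusted p = 9.56e-06).

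Of 21 tested genes of peroxisomal fatty acid oxidation other than Acaa1b, 8 rose and 9 fell, with a median of 0.058. With library totals alone 6 rose and 10 fell, and the median was -0.14. The reductase gene Pecr had 21, 8 and 21 counts in DN and 351, 440 and 329 in DP and rose by 3.76 ± 0.16. Catalase, Cat, changed by -1.38 ± 0.04 and the acyltransferase gene Crot by -1.36 ± 0.08.

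Among the members with a RefSeq promoter Acaa1b had the lowest content of CpG, though 29.0% of all windows lay lower still. The ratio of observed to expected CpG in the 250 bases before its start was 0.195, against a median of 0.373 over all windows and 0.563 to 0.981 in the 6 others, above 63.6% to 93.2% of windows. The windows of Hpdl, Htr7 and Il1r2 overlap exons of the same gene by 199, 147 and 108 bases. Its window at chr9:119157094-119157343 and that of Mfsd2a at chr4:122961189-122961438, both on the minus strand of GRCm38.p6, are shown for this contrast. The capitals mark CCAAT on either strand, which 33.8% of windows held.
Acaa1b: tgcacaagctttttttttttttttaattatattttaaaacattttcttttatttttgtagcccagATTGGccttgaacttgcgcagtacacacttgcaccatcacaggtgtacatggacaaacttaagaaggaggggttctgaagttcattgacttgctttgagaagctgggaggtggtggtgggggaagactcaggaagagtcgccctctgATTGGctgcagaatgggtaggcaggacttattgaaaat
Mfsd2a: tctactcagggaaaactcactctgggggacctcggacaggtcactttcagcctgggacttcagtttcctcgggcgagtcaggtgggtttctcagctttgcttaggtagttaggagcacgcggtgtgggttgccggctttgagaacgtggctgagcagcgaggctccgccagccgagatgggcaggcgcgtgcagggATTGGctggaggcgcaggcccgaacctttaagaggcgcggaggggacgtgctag
The matches begin 185 and 38 bases before the start in Acaa1b and 54 bases before it in Mfsd2a, where the ratio of observed to expected CpG was 0.754.

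Hpdl encodes a mitochondrial enzyme related to 4-hydroxyphenylpyruvate dioxygenase that takes part in making the headgroup of coenzyme Q. Its counts were 0 in DN and 15, 20 and 13 in DP, or 0.889, 1.03 and 0.793 CPM. These were the fewest DP counts of the 10 genes, and chi-square over the DP libraries was 0.291 per degree of freedom. At the DP level 29.2 counts would have fallen in DN, and with DN set to 3 counts the level was 9.75-fold higher in DP.

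Hpd, the tyrosine breakdown enzyme that Hpdl resembles, had no read in any library. Of 15 tested genes of tyrosine breakdown and coenzyme Q synthesis other than Hpdl, 11 rose and 2 fell, with a median of 0.49. With library totals alone 8 rose and 4 fell, and the median was 0.29. Coq5 and Coq7, which act late in coenzyme Q synthesis, rose by 0.95 ± 0.05 and 1.42 ± 0.08. Fah, the last enzyme of tyrosine breakdown, rose by 1.58 ± 0.13.

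Glt1d1 encodes a protein with a glycosyltransferase domain. No DN library held a read of it, and the DP libraries held 44, 32 and 37, or 2.61, 1.66 and 2.26 CPM. With DN at 3 counts it was 22.9-fold higher in DP. Its gene overlaps Slc15a4 on the other strand without shared exon bases, and Slc15a4 fell, with a log2 fold change of -1.204 ± 0.096. The related gene Gtdc1 fell by 0.24 ± 0.11 with an adjusted p of 0.0443. The call was lost without DN replicate 1 (adjusted p = 0.196), DN replicate 2 (0.266) or DP replicate 1 (0.0683), 2 (0.114) or 3 (0.0854), without the filter (0.245) and in DESeq2 (0.116). Of 5 tested genes for transferases of the GT4 type other than Glt1d1, 3 rose and 2 fell. Alg2, which acts in building the N-glycan precursor, rose by 1.36 ± 0.14 and Piga by 0.52 ± 0.11, and the glycogen synthase gene Gys1 fell by 0.87 ± 0.14.

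Arhgdig had no DN read and 14, 26 and 15 counts in DP, or 0.830, 1.35 and 0.915 CPM. With DN set to 3 counts the level was 11.2-fold higher in DP. Arhgdig shares 138 exon bases with Rgs11 on the other strand, and Rgs11 had 16 counts in DN and 19 in DP. The strand setting of the counting is not given in the sources used here, and the part of shared reads in either gene was not tested.

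Lad1 encodes ladinin, a protein of the filaments that anchor epithelia to the basement membrane. The DN libraries held 1, 0 and 1 counts and the DP libraries 100, 116 and 82, or 5.93, 6.00 and 5.00 CPM. The ratio of 90.75 rests on 2 DN counts and had an exact 95% counting interval of 24.9 to 753. Leaving out DN replicate 3 raised its log2 ratio from 6.50 to 6.98, and leaving out DN replicate 2 lowered it to 6.00. Several epithelial partners of ladinin were at or near 0. Col17a1 had no read in any library, Itgb4 had 7 counts in DN and 3 in DP, and the keratin gene Krt14 had a single count in all. Of 6 tested genes of this list other than Lad1, 4 fell and 1 rose, or 5 and 0 with library totals alone. The rise, that of Dst (adjusted p = 0.044), was also lost without DN replicate 2 (0.4), DP replicate 1 (0.104) or DP replicate 3 (0.0823), with upper-quartile factors (0.0655), a minimum count of 30 (0.0536) and DESeq2 (0.115). Col7a1, the collagen of anchoring fibrils, changed by -1.38 ± 0.15, Plec by -0.33 ± 0.04 and Cd151 by -1.24 ± 0.25.

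Ankrd33b encodes an ankyrin repeat protein. It had 15, 6 and 9 counts in DN and 264, 304 and 249 in DP, with means of 0.910 ± 0.274 and 15.5 ± 0.287 CPM (SD, n = 3) and no overlap. The ratio of 16.6 had an exact counting interval of 11.5 to 24.75. It was the most abundant member by counts in both subsets, and chi-square over its DP libraries was 0.0906 per degree of freedom. Its relative Ankrd33 had no read in any library. The window before its RefSeq start, at chr15:31367760-31368009 on the minus strand of GRCm38.p6, is shown because it held 3 copies of the GC box GGGCGG, marked in capitals on either strand. Such boxes occurred in 32.7% of windows and 3 or more of them in 8.47%.
Ankrd33b: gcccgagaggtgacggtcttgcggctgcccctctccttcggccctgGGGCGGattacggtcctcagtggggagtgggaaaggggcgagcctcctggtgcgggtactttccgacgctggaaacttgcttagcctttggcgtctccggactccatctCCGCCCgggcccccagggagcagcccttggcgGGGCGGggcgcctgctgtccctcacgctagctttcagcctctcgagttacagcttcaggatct
Their first bases lie 204, 95 and 63 bases before the start.

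**Figure D2:**
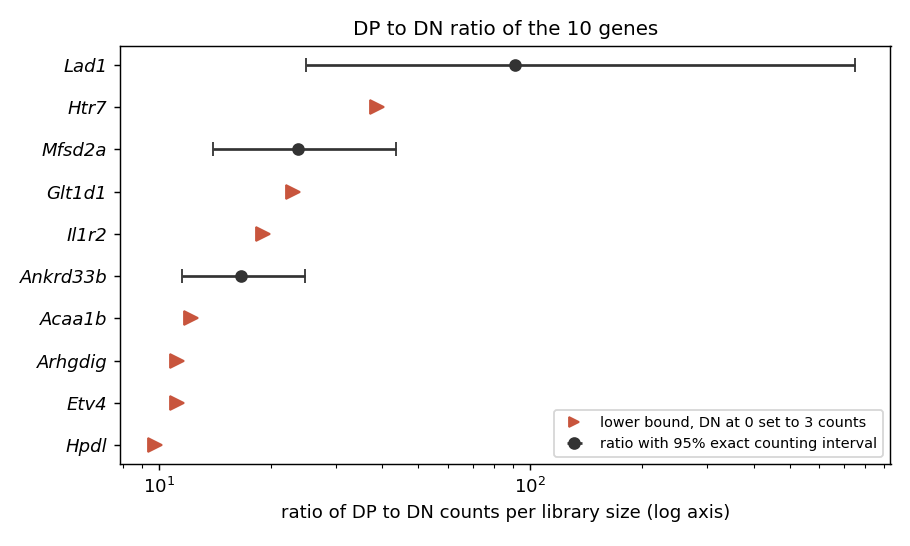
Ratio of DP to DN counts per TMM-adjusted library size (x axis, log scale) for the 10 genes. Circles with bars are ratios with a 95% exact counting interval, and triangles are lower bounds for the 7 genes without a DN read, computed with 3 counts in DN. These bounds allow for the DN count only and take the DP counts as observed, so they are not 95% limits. The bounds run from 9.75 for Hpdl to 38.8 for Htr7, and the widest interval, 24.9 to 753, belongs to Lad1.

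Levels were compared between the genes per kilobase of annotated exon. Mfsd2a was highest in DP at 4.61 ± 0.353 CPM per kilobase (SD, n = 3), above 50.5% of tested genes with a known length. Ankrd33b at 1.77 ± 0.0327 and Lad1 at 1.66 ± 0.163 followed and did not differ beyond their spread. Htr7 at 1.08 ± 0.189 and Il1r2 at 0.942 ± 0.316 came next and were likewise within their spread of each other. Arhgdig (0.658 ± 0.176), Acaa1b (0.571 ± 0.196), Hpdl (0.502 ± 0.0674), Glt1d1 (0.497 ± 0.110) and Etv4 (0.341 ± 0.136) came last. In this order Il1r2 and Arhgdig, Arhgdig and Acaa1b, Acaa1b and Hpdl, and Hpdl and Glt1d1 each differed by less than the larger of their SDs, whereas Glt1d1 and Etv4 differed by more. Etv4 lay above only 7.94% of tested genes. Except for Mfsd2a, all members were below the median of tested genes in DP, 4.48 CPM per kilobase.

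All 10 are protein-coding genes in GENCODE release M21 for mm10, and their counts are sums over exons. Lad1 (ENSMUSG00000041782.14) lies on chromosome 1 from 135818598 to 135833342, Il1r2 (ENSMUSG00000026073.13) on chromosome 1 from 40074079 to 40125231 and Htr7 (ENSMUSG00000024798.15) on chromosome 19 from 35958734 to 36057507. Hpdl (ENSMUSG00000043155.4), which has a single exon, lies on chromosome 4 from 116819904 to 116821707, and Mfsd2a (ENSMUSG00000028655.11) on the same chromosome from 122946850 to 122961188. Etv4 (ENSMUSG00000017724.14) is on chromosome 11 from 101769742 to 101785371, Glt1d1 (ENSMUSG00000049971.17) on chromosome 5 from 127632262 to 127709374 and Acaa1b (ENSMUSG00000010651.4) on chromosome 9 from 119148023 to 119157093. Arhgdig (ENSMUSG00000073433.11) is on chromosome 17 from 26199183 to 26207786 and Ankrd33b (ENSMUSG00000022237.17) on chromosome 15 from 31291478 to 31367726. Apart from Acaa1b and Arhgdig, no member shared a 50-base stretch with a transcript of another gene. Within the limits of a match of letters, none of the 7 promoters found in RefSeq held TGANTCA, the AP-1 site, TGACGTCA, the cyclic AMP response element, the NF-kB consensus or TATAAA on either strand, which occurred in 6.75%, 1.55%, 7.25% and 12.4% of windows.

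The nearest protein-coding neighbour on each side of a member was looked up, 20 genes in all, of which 12 did not reach the filter. Rpp30 beside Htr7 rose by 1.27 ± 0.11, and Kif20b, 982988 bases away on the other side of Htr7, fell by 0.31 ± 0.06. Dhx8 beside Etv4 rose by 0.37 ± 0.04 and Fam234a beside Arhgdig by 0.85 ± 0.40 (edgeR adjusted p = 0.0483). Map4k4 beside Il1r2 was not called (0.066 ± 0.038, adjusted p = 0.106). Dap beside Ankrd33b fell by 1.24 ± 0.06, and Cap1 beside Mfsd2a changed by -0.69 ± 0.03. Plcd1 beside Acaa1b had 3, 0 and 0 counts in DN and 18, 11 and 8 in DP, and Tnnt2 beside Lad1 none in DN and 10 in DP. Mutyh, 463 bases from Hpdl on the other strand, was not called (0.11 ± 0.14, adjusted p = 0.474). Pdia2, 95 bases from Arhgdig on the same strand, had no DN read and 5 in DP. Within Il1r2, the antisense RNA gene Gm16894 had 0, 4 and 3 counts in DN and 10, 12 and 15 in DP. It shares no exon base with Il1r2.

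Few or no reads in DN were common in the whole table, as 10032 of the 21738 genes with any count were below 0.5 CPM there and 2936 had DP counts only. Few of them reached the members' DP counts. Of 21738 genes with any count, 14 (0.0644%) had no read in any DN library and at least 40 in DP, and 7 of them are the members above. The other 7 were chosen here after their values were seen. They include Zbtb46, a transcription factor of dendritic cells, with 29, 33 and 27 DP counts, Cd70, the ligand of the costimulatory receptor CD27, with 19, 31 and 21, Car12, a carbonic anhydrase, with 20, 22 and 10, and Echdc2 with 18, 21 and 10. The rest were 1110032F04Rik with 131 DP counts, 1700009J07Rik with 91 and Gm14798 with 46. With DN at 3 counts Zbtb46 was 18.1-fold and Cd70 14.4-fold higher in DP. No gene had 0 counts in DP and at least 40 in DN, but the DP libraries were 1.88 times deeper, so that a gene of equal level is less often missed there.

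By mean level, 46 genes (0.212%) were below 0.5 CPM in DN and at or above 2 CPM in DP, and 67 showed the reverse. Lad1, Htr7, Glt1d1 and Mfsd2a were among the 46. Il1r2, Etv4, Hpdl, Acaa1b and Arhgdig fell short of 2 CPM in DP, Il1r2 being nearest at 1.80 CPM, and Ankrd33b was above 0.5 CPM in DN. The 8 named protein-coding genes outside the members with the highest ratio of DP to DN counts over the 6 libraries, DN being set to at least 3 counts, were Tnfrsf8, Ankrd13b, Ccl22, Socs2, Socs3, Mcrip2, Ido2 and Nme4. Tnfrsf8, which encodes CD30, came first with 6, 0 and 2 counts in DN and 670, 810 and 677 in DP, a ratio of 164 with an exact interval of 83.2 to 381. With DN set to 3 counts the ratio was 26.2 for Ccl22 and for Socs2 and 22.3 for Ido2. Their ratios on the counts as observed rest on a single DN count and follow with their intervals, which contain that of Tnfrsf8. Ccl22, a chemokine that attracts CCR4-bearing T cells, had 0, 1 and 0 counts in DN and 50, 51 and 28 in DP, an observed ratio of 78.6 with an exact interval of 13.9 to 3127. Socs2, an inhibitor of cytokine signalling, had 1, 0 and 0 counts and 40, 41 and 48, with the same ratio and interval. Ido2, related to the tryptophan-degrading enzyme IDO1, had 0, 1 and 0 counts and 29, 42 and 39, an observed ratio of 67.0 with an interval of 11.8 to 2670.

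**Figure D3:**
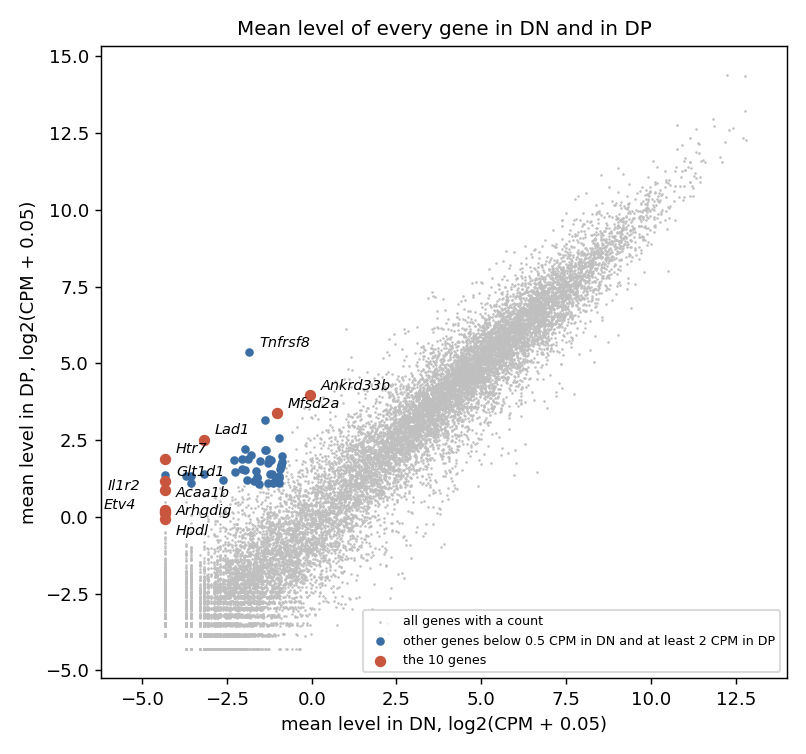
Mean level of every gene with a count in DN (x axis) and DP (y axis), each as log2(CPM + 0.05), where the pseudocount of 0.05 serves only to show zeros. The 10 genes (red) and the other genes below 0.5 CPM in DN and at least 2 CPM in DP (blue) stand at the upper left edge of the cloud, and Tnfrsf8 is the highest blue point at 41.0 CPM in DP.

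Over all the related lists together, 127 genes other than the members were tested, of which 48 (37.8%) rose and 57 (44.9%) fell. Over all tested genes the shares were 38.3% and 37.6%. Scaling by library totals alone, which moved the median of all tested genes from 0.0061 to -0.19, gave 38 higher and 69 lower. The largest rises were those of Pecr (3.76), Fabp5 (3.70) and Myc (3.55) on the log2 scale. Among all called genes 50.5% were higher in DP, against 38.1% with library totals alone.

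**Figure D4:**
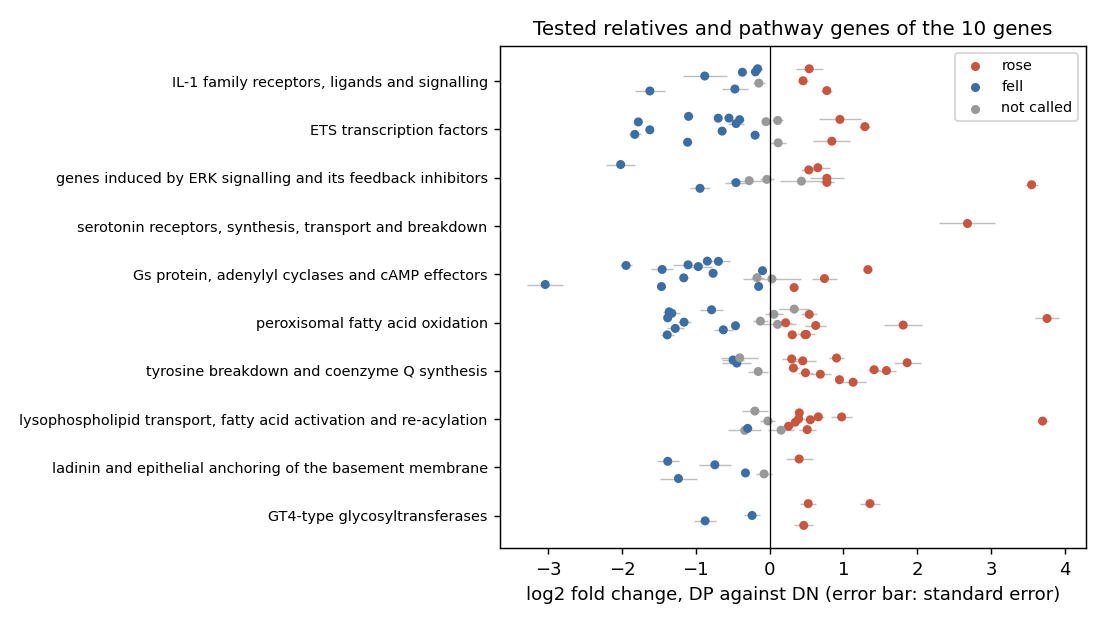
Log2 fold change of DP against DN (x axis, error bars give the standard error) for tested relatives and pathway genes of the 10 genes, 1 row per list with a tested gene, the members themselves and 1 list left out. Colours give genes that rose, fell or were not called at an edgeR adjusted p of 0.05. Rises prevail for tyrosine breakdown and coenzyme Q synthesis (11 of 15) and lysophospholipid genes (9 of 14), and falls for ETS factors (11 of 17) and cyclic AMP signalling (12 of 17).

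Markers of other cells that are known to express some of these genes were measured beside them. Neutrophils carry much Il1r2, and the summed level of 13 neutrophil markers was 4.55 to 6.40 CPM in DN and 0.948 to 1.60 CPM in DP, with Ly6g at 0 in every library. Platelet, endothelial and mast cell or basophil markers summed to at most 1.10 CPM in any library, with Pf4, Tie1 and Fcer1a at 0. Endothelial cells are a known site of Mfsd2a, and the endothelial marker Cdh5 had 26 counts in DN and 30 in DP. Itga2b, of the platelet list, had 9 and 17. The 9 epithelial markers, of interest for Lad1, summed to 2.41 to 3.22 CPM in DN and 3.05 to 3.50 CPM in DP, with Cldn4 and Cldn7 at 0. Epcam rose in this list, from 22 counts in DN to 118 in DP (1.70 ± 0.33), and Krt18 fell. The 12 T cell markers summed to 50.7 to 59.1 CPM in DN and 58.3 to 60.8 CPM in DP, nearly all of it Lck. They were mixed, as Lck rose by 0.19 ± 0.06, though not with library totals alone, and Cd4 fell by 1.12 ± 0.37. Cd3e had 13 counts in DN and 2 in DP, whereas Trac had 3 and 7 and Ctla4 had 3 and 8. Dendritic cell markers were mixed. Their sum over 7 genes was 24.7 to 25.2 CPM in DN and 41.5 to 43.5 CPM in DP, nearly all of it Flt3, and Flt3, Itgax and Zbtb46 rose while Xcr1 was at 0, Itgax not in DESeq2 (adjusted p = 0.0692). Clec9a, Siglech and Ccr9 went the other way, with 2, 3 and 1 counts in DN and 0 in DP. Among 6 tested plasma cell markers 4 rose and 1 fell, with sums of 403 to 413 CPM in DN and 369 to 380 CPM in DP. The fall was that of Jchain, from 277 ± 5.79 to 154 ± 2.37 CPM (SD, n = 3), and Sdc1, Prdm1, Xbp1 and Irf4 rose. Macrophage, erythroid and stromal or follicular dendritic cell markers summed to 31.0 to 35.0, 62.0 to 72.4 and 69.1 to 75.8 CPM in DN and to 15.3 to 17.7, 15.9 to 18.3 and 92.7 to 97.0 CPM in DP. The last of these sums was nearly all Fcer2a, the CD23 gene that B cells also express, and Col1a1 and Col3a1 were not called (adjusted p = 0.666 and 0.588). Of 8 tested macrophage markers 7 fell, and Cd68 rose by 0.52 ± 0.22 (edgeR adjusted p = 0.0326). The rise of Cd68 was not called with library totals alone or in DESeq2. The part of any of these cell types in the members' levels was not tested.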

How the data were processed

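Polyadenylated RNA of 3 DN and 3 DP libraries was sequenced after stranded library preparation from 2 ug of total RNA, per the labels' protocols. The deposited values are raw read counts per gene, 1 table per library. HTSeq 0.13.5, STAR 2.7.10a and Trim Galore 0.6.6 are named beside the mm10 build, per the submitters' processing notes. The sources used here do not give the annotation release, the strand setting or any use of molecular identifiers. Duplicate reads, if kept, would make counting intervals too narrow. Each table held 5 summary rows without a gene, 9.47% to 12.95% of all counts, which were left out.

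Members were matched by symbol. The list of relatives of Arhgdig is counted in the totals over related genes and is otherwise not reported here. The members and lists were chosen with earlier results of these data known, and the genes named are all members, their closest relatives, up to 3 called genes with the smallest p per list, overlapping genes and the 8 genes most alike by ratio. Dusp6, Spry2 and Spry4 were counted among the relatives of Etv4. Gnas, Acsl4, Etv6, Erf, Krt14, Itgb4, Dst, the neighbours and the markers named singly were added after their values were seen. Il1a, Il1b, Il1rn, Tph1, Tph2, Ddc and Slc6a4 were also named outside this rule. All genes were fitted with the quasi-likelihood test of edgeR 4.0.16 (TMM, filterByExpr with a minimum count of 10, robust, no block) in R 4.3.3, with Benjamini-Hochberg adjustment over 11296 genes. Fold changes are of DP against DN with standard errors. Ratios of summed counts have exact conditional binomial intervals at 95% (scipy 1.17.1). Gene positions and exon lengths came from GENCODE M21, and promoter sequences from RefSeq (GRCm38.p6), which held 7 of the 10 members. Motifs were searched on both strands of 250 bases. Alternatives were 3 other scalings, 2 other filters, DESeq2 1.42.0, the replicate number as a block and leaving out each library.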

Additional observations from a re-analysis of the deposited data

How the results depend on the processing

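The median log2 ratio of the 10 genes, 7 of them with DN set to 3 counts, was 4.15, and 3.96 to 4.15 with other scalings. The choice of the genes fixes its direction. It was 6.89 from the fitted edgeR fold changes and 6.91 from those with the replicate number as a block. Fitted values of genes without a DN read depend on the prior count and are no bound. Leaving out a library gave 3.66 to 4.22. The values without a DN library are lower by construction, since the floor of 3 counts then stands for less depth. Of the 46 genes near silent in DN and on in DP, 19 remained at below 0.25 CPM in DN and 5 at 5 CPM or more in DP. Of the 67 with the reverse pattern, the counts were 19 and 9. Leaving out a library gave 44 to 50 and 64 to 71, and library totals alone gave 36 and 81. The number of called genes was 8571, and 7824 to 9102 under the alternatives, 8589 with the block and 7910 with DESeq2. The deviations of same-numbered libraries from their group means had correlations of 0.0562, -0.0061 and -0.018. No label pairs the libraries, and whether those with the same number come from the same mouse was not settled by these values. The replicate block left 105 related genes called, as without it. Of the called genes 50.5% were higher in DP, and 38.1% with library totals alone. A minimum count of 30 kept only 4 members in the test, and leaving out DP replicate 2 kept 6. Depth limits what a DN count of 0 shows to levels above 0.0937 CPM.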
